A study of Mus musculus with 6 samples.

Results

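Interferon response genes are the genes that cells switch on when an interferon binds its receptor. A list of 44 of them was followed here, and each gene was represented by its brightest probe set (highest mean of 6 arrays) among those annotated with a single gene symbol. This gave values for 42 genes, of 18193 genes with such a probe set on the array. Ifi44 had none, and Isg15 was listed only together with another symbol, so neither was analysed here. The cells were c-Kit+Sca-1+Lin- (KSL) cells of C57BL/6J mouse bone marrow, a surface phenotype shared by stem cells and early progenitors of blood. All had been cultured for 7 days on HUVEC, which are human umbilical vein endothelial cells, with mouse cytokines (the m5GF mix). Cultures received mD1R in 3 samples or PBS (phosphate-buffered saline, the control) in 3 samples, and KSL cells were then sorted again for total RNA. The labels do not spell out mD1R, which is known from the study to be a recombinant, endothelium-binding form of the Notch ligand Delta-like 1 of the mouse. The human feeder cells were in every culture, and their own interferon state was not measured. Signals are log2 values from Affymetrix arrays, 1 array for each of the 6 biological replicates.

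Type I interferons signal through the Ifnar1 and Ifnar2 receptor chains and the kinases Jak1 and Tyk2 to a complex that includes Stat2 and Irf9 and binds the interferon-stimulated response element (ISRE). Interferon gamma signals through Ifngr1, Ifngr2, Jak1 and Jak2, and its early targets carry the gamma-activated site (GAS). In mice, both kinds of interferon are known to push quiescent blood stem cells into division, and the Sca-1 antigen of the sort gate is itself encoded by an interferon-inducible gene, Ly6a. The members were divided into 24 measured genes known best as type I targets, 11 known best as interferon gamma targets and 7 induced by both, and the division is a convention because most members respond to both ligands to some degree.

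The promoter sequences are shown first because they use no signal. The members were listed as known interferon targets, so motif shares above those of all genes may follow from that choice alone. RefSeq promoter windows (GRCm38.p6, 250 bases before to 50 bases after a transcript start) were matched for 35 of the 44 genes. Both strands were searched for an ISRE-like motif, GAAANNGAAA (TTTCNNTTTC on the other strand), and for the palindromic GAS motif, TTCNNNGAA, and overlapping matches were each counted. The ISRE-like motif was found for 15 of these 35 genes (42.9%), against 1079 of all 27025 genes with a full window (3.99%). A GAS match was found for 12 of the 35 (34.3%), against 2582 of all genes (9.55%). By class, the ISRE-like motif was present for 9 of 20 type I genes, 5 of 10 interferon gamma genes and 1 of 5 genes of both classes, and GAS for 5, 4 and 3 of them. A match is a description of the letters and does not show that a factor binds. The windows below, 60 bases each and 5′ to 3′ on the gene's strand, show matches in capitals. The 5 from Bst2 to Stat2 were picked from genes that were higher with mD1R and had an ISRE-like match. Igtp, Ifit1 and Irf1 did not pass the test. Not every riser had such a match: it was found for 6 of 9 risers with a window and 8 of 24 members not called. GAS was found for 2 of these 9 and 10 of these 24. Whether the motifs go with the calls was not tested.
Bst2: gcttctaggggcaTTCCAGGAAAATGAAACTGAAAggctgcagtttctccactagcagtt
Irgm1: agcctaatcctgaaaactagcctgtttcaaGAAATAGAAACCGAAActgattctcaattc
Irgm2: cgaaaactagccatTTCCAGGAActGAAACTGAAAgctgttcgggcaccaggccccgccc
Gbp3: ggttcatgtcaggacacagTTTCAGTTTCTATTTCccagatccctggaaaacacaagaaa
Stat2: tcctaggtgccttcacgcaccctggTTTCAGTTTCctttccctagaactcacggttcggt
Igtp: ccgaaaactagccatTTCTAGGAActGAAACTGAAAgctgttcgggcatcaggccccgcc
Ifit1: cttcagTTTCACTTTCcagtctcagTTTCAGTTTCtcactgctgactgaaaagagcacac
Irf1: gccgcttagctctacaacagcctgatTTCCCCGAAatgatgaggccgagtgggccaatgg

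The Bst2 window lies at chr8:71537562-71537621 on the minus strand, and its GAS match overlaps the first of its 2 ISRE-like matches. Irgm1 lies at chr11:48871421-48871480 on the minus strand, and its 2 ISRE-like matches overlap. Irgm2 (chr11:58214888-58214947) and Igtp (chr11:58199496-58199555), both on the plus strand, hold a GAS match followed by an ISRE-like match, and aligned with a shift of 1 base the windows are identical at 57 of 59 bases. Gbp3 lies at chr3:142559980-142560039, Stat2 at chr10:128270251-128270310, Ifit1 at chr19:34640779-34640838 and Irf1 at chr11:53769898-53769957, all on the plus strand. In Gbp3 the ISRE-like matches overlap, in Ifit1 they are separate, and in Irf1 only a GAS match was found.

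The arrays were compared with limma, and a difference passed at an adjusted p under 0.05 over all 27022 probe sets kept by a filter on mean signal. The linear values of every array had the same 2% trimmed mean of 500.0, and median log2 signals lay between 6.08 and 6.42. On the first principal component (56.9% of variance) replicates 1, 2 and 3 of mD1R lay at 108.4, 93.6 and 12.6 and the PBS replicates at -64.5, -70.7 and -79.4, so mD1R replicate 3 stood nearest to PBS. The BioB hybridisation control, relative to the other bacterial and phage controls, split the arrays into 2 spike-in sets that cross the groups. Set 1 (-3.29 to -3.17, log2) held mD1R replicates 1 and 2 and PBS replicate 1, and set 2 (-5.77 to -5.69) held mD1R replicate 3 and PBS replicates 2 and 3. Kit, the stem cell factor receptor of the gate, had log2 signals of 11.37, 11.13 and 9.58 with mD1R, against 9.97, 8.85 and 9.21 with PBS, and did not pass (adjusted p = 0.109, limma). Ly6a had no single-symbol probe set and was not analysed here.

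Interferon response genes passed as higher with mD1R at a larger share than genes in general, and none passed as lower. Of 42 members, 12 rose and 0 fell, that is 28.6% of members higher, against 8.49% of all 12320 genes tested that passed as higher and 7.09% that passed as lower. Among all probe sets kept, 6.13% passed as higher and 6.5% as lower. The median log2 change of members was 0.94, against 0.09 for all genes tested, and 40 of 42 changes were positive. All 3 mD1R arrays lay above all 3 PBS arrays in 22 members (52.4%), against 22.1% of all genes, and in 0 members did they all lie below, against 18.1%. Every one of the 42 passed the filter, and the lowest group mean among them was 8.55 with mD1R and 7.63 with PBS, well above the filter's 5.27, so none was kept through 1 group alone. RNA came from bulk sorted cells, so more cells with an active response and more RNA per cell cannot be told apart.

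The count of risers depended on single arrays. Without mD1R replicate 1 it was 12 (28.6% of members, against 5.58% of all genes higher in the same fit), without mD1R replicate 2 it was 3 (7.14%, against 1.91%), and without mD1R replicate 3 it was 10 (23.8%, against 12.7%). Without PBS replicate 1 it was 2 (4.76%, against 3.69%), a share near that of all genes, and without PBS replicate 2 it was 2 (4.76%, against 1.78%). Without PBS replicate 3 limma called 0 members and 0% of all genes higher, and 21 members had an unadjusted p under 0.05. In each of these 6 fits 39 to 42 of the 42 changes were positive. With the spike-in set as a block 29 members rose and 0 fell, against 9.09% of all genes higher in that fit, and 11 of the 12 risers were among them. The exception was Gbp3 (adjusted p = 0.0561, limma with the block). Over 16 other settings, Bst2 and Irgm1 kept their calls in 15, Stat2, Irgm2 and Parp14 in 12, Ifi204 and Trim25 in 11, Herc6 in 10, Parp9 in 9, Irf7 in 8, Trim30a in 5 and Gbp3 in 4. The median change was 1.19 within set 1 and 1.27 within set 2, each resting on a single array of 1 group.

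**Figure D1:**
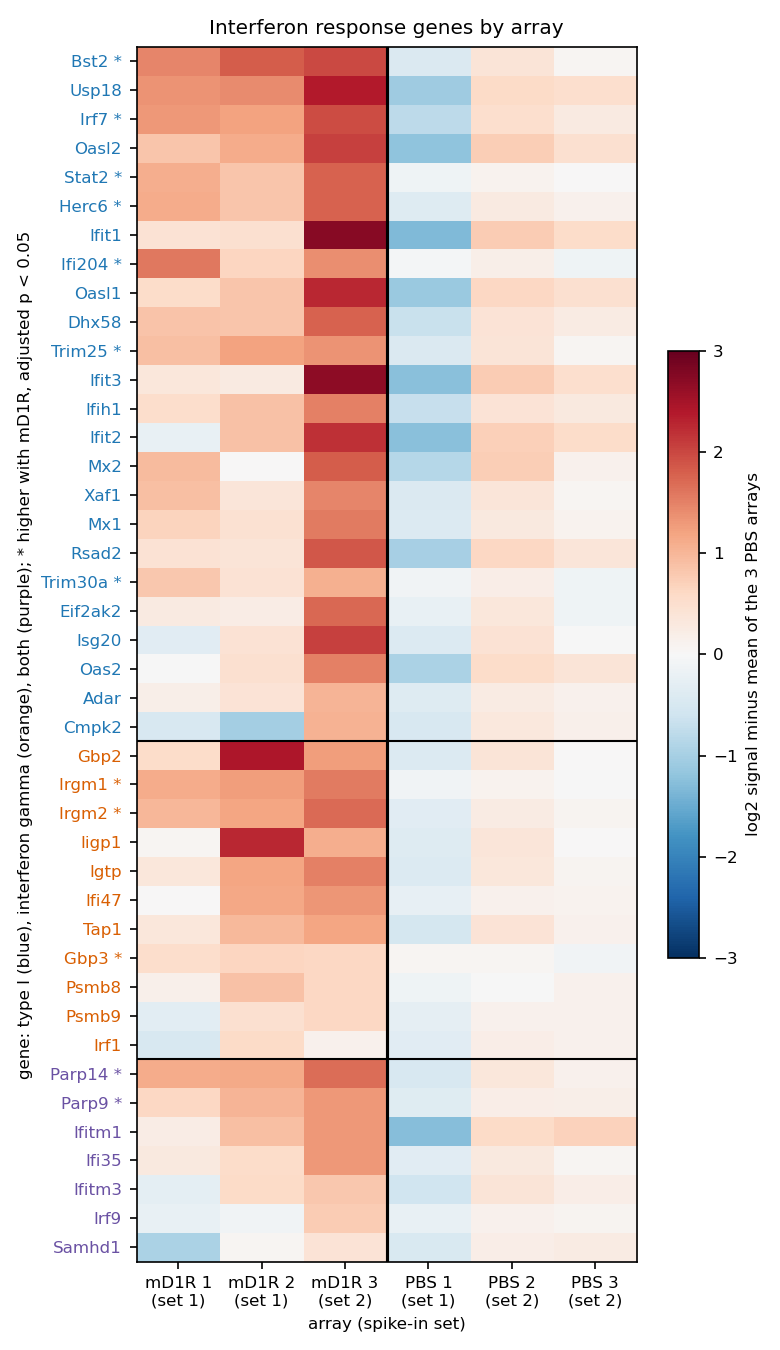
Log2 signal of each of the 42 measured members on each array, as the difference from the gene's mean over the 3 PBS arrays (colour), with columns for mD1R and then PBS replicates and the spike-in set under each name. Rows are sorted by change within each class, and asterisks mark the 12 genes that passed. Replicate 3 of mD1R is the darkest red column and PBS replicate 1 the bluest.

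The transcription factors of the pathway did not move alike. Irf7, the factor that amplifies type I interferon production, had log2 signals of 12.42, 12.33 and 13.08 with mD1R, against 10.34, 11.63 and 11.41 with PBS, and rose by 1.49 ± 0.36 (log2, SE; adjusted p = 0.0350, limma). Stat2, which joins Irf9 in the ISRE-binding complex, had 9.25, 9.01 and 9.94 with mD1R, against 8.03, 8.29 and 8.20 with PBS, and rose by 1.23 ± 0.27 (adjusted p = 0.0274). In both genes the lowest mD1R array lay above the highest PBS array, which held for 22.1% of all genes. A second Stat2 probe set gave 0.92 and did not pass (adjusted p = 0.0619). Irf9, the DNA-binding subunit of the same complex, had 10.55, 10.65 and 11.52 with mD1R, against 10.55, 10.89 and 10.86 with PBS, a difference of 0.14 ± 0.28 that did not pass (adjusted p = 0.778). Irf1, the first factor that interferon gamma induces through GAS, had 11.12, 12.17 and 11.72 with mD1R, against 11.25, 11.80 and 11.73 with PBS, and its difference of 0.08 ± 0.29 did not pass either (adjusted p = 0.888). The groups overlapped in both Irf9 and Irf1.

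Among membrane proteins that restrict viruses, Bst2, the tetherin that holds budding virions at the cell surface, had the largest change of the 12 risers. Its log2 signals were 12.91, 13.28 and 13.44 with mD1R, against 11.02, 11.83 and 11.51 with PBS, a 3.37-fold rise (log2 change 1.75 ± 0.25, adjusted p = 0.0113, limma), and the change was 2.07 within spike-in set 1 and 1.77 within set 2. Ifitm1 and Ifitm3, which block viral entry at membranes, did not pass. Ifitm1 had 14.00, 14.69 and 15.07 with mD1R, against 12.50, 14.36 and 14.48 with PBS, so its difference of 0.81 ± 0.53 came with 1 low PBS array. Ifitm3 differed by 0.36 ± 0.36.

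Of the immunity-related GTPases, which interferon gamma induces and which act on membranes around intracellular pathogens, 2 of 5 rose, against 8.49% of all genes. Irgm1, known in mice for protecting blood stem cells during interferon responses, had 11.41, 11.55 and 11.85 with mD1R, against 10.20, 10.41 and 10.28 with PBS, and rose by 1.31 ± 0.18 (adjusted p = 0.0111, limma). Its replicates lay close together in both groups, and its change lay between 1.18 and 1.40 in the 16 other settings. Irgm2 had 10.53, 10.74 and 11.24 with mD1R, against 9.20, 9.79 and 9.64 with PBS, and rose by 1.29 ± 0.25 (adjusted p = 0.0192). Igtp, whose promoter window nearly matches that of Irgm2, had 11.46, 12.29 and 12.62 with mD1R, against 10.70, 11.45 and 11.19 with PBS, and did not pass (1.01 ± 0.33, adjusted p = 0.0802). All 3 mD1R arrays lay above the PBS arrays in Igtp too, but the nearest values, 11.46 with mD1R and 11.45 with PBS, almost met. Ifi47 differed by 0.83 ± 0.34 and Iigp1 by 1.15 ± 0.50. Genes of this family and of the Gbp and Ifit families are close copies, and whether their probe sets share signal was not tested.

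Among guanylate-binding proteins, which attack the vacuoles of intracellular pathogens, Gbp3 had 10.46, 10.57 and 10.55 with mD1R, against 9.98, 9.98 and 9.83 with PBS, and rose by 0.60 ± 0.16 (adjusted p = 0.0495, limma). Its rise was the smallest of the 12 and its replicate spread was also small. Gbp2 had 11.02, 12.91 and 11.74 with mD1R, against 10.08, 10.87 and 10.50 with PBS. Its difference of 1.41 ± 0.45 did not pass (adjusted p = 0.0778), although a second Gbp2 probe set did (1.38, adjusted p = 0.0478). Of the antigen processing genes, the immunoproteasome subunits Psmb8 (0.55 ± 0.22) and Psmb9 (0.27 ± 0.27) and the peptide transporter Tap1 (0.83 ± 0.30) did not pass.

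**Figure D2:**
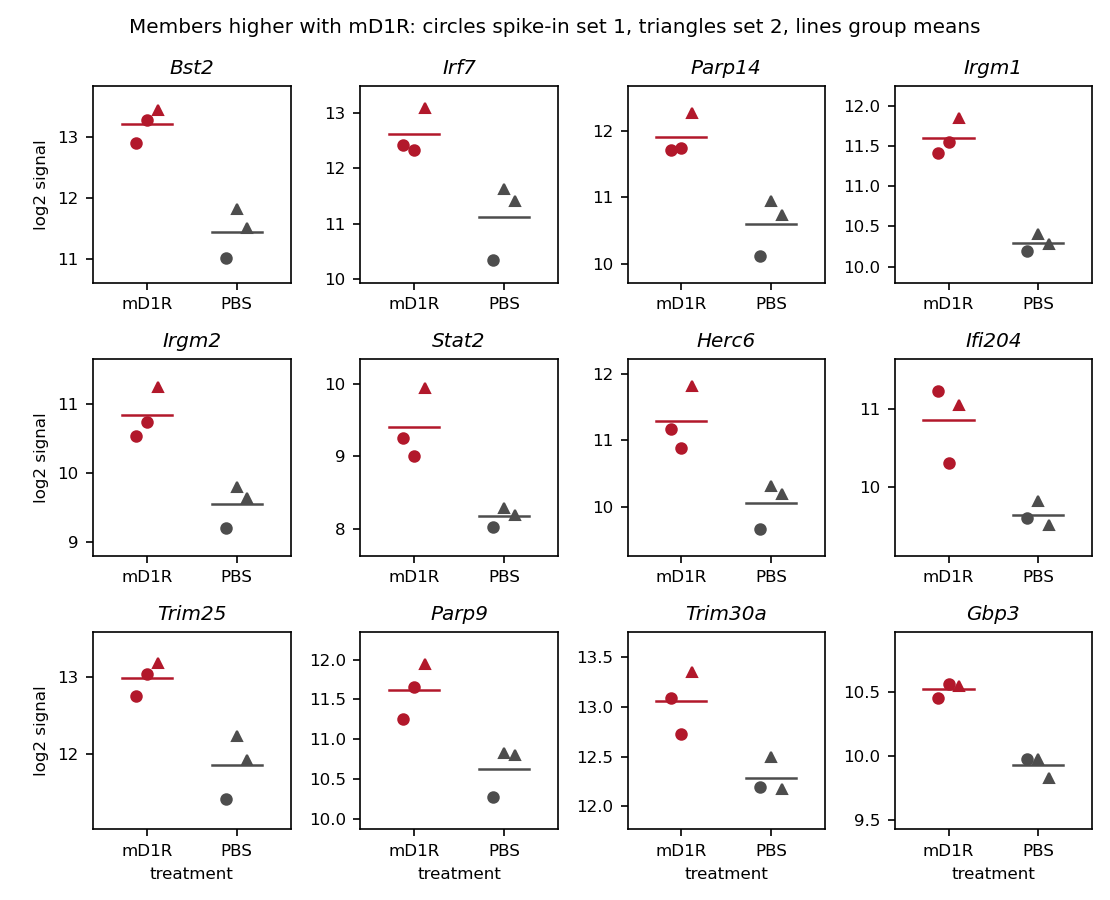
Log2 signal of the 12 members that rose, per array, with mD1R left and PBS right in each panel, circles for spike-in set 1, triangles for set 2 and lines for group means (n = 3 each). No mD1R point falls below a PBS point in any panel, which held for 22.1% of all genes tested. Axes differ between panels and do not start at 0.

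The Isg15 pathway attaches a ubiquitin-like protein to other proteins. Herc6, the main ligase of that reaction in mice, had 11.17, 10.88 and 11.82 with mD1R, against 9.66, 10.31 and 10.19 with PBS, and rose by 1.23 ± 0.29 (adjusted p = 0.0311, limma). Of 3 further Herc6 probe sets, 1 passed (1.24) and the others gave 0.75 and 1.10. Usp18, which removes Isg15 and also dampens signalling at the type I receptor, had 12.99, 13.06 and 14.02 with mD1R, against 10.58, 12.22 and 12.15 with PBS. Its difference of 1.71 ± 0.47 narrowly did not pass (adjusted p = 0.0515), though the groups did not overlap, and it was 2.14 ± 0.19 with the spike-in set as a block (adjusted p = 0.00671).

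RNA sensing genes had higher signals on every mD1R array than on any PBS array, which held for 22.1% of all genes. By their brightest probe sets only 1 of 3 passed, against 8.49% of all genes. Trim25, the ubiquitin ligase that activates the sensor RIG-I, had 12.75, 13.05 and 13.19 with mD1R, against 11.41, 12.23 and 11.91 with PBS, and rose by 1.15 ± 0.24 (adjusted p = 0.0237, limma), and its other probe sets passed too (1.07 and 1.30). Ifih1, the double-stranded RNA sensor MDA5, differed by 0.98 ± 0.36 (adjusted p = 0.110). Dhx58, the regulatory helicase LGP2, differed by 1.15 ± 0.36 (adjusted p = 0.0715). A dimmer Dhx58 probe set passed (1.55, adjusted p = 0.0388, limma) and another did not (1.14, adjusted p = 0.103). Their PBS means of 5.26 and 5.24 lay near the filter's 5.27.

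The ADP-ribosyltransferase genes Parp9 and Parp14, whose products carry macrodomains, both rose. Parp14 had 11.71, 11.74 and 12.27 with mD1R, against 10.12, 10.95 and 10.73 with PBS, and rose by 1.31 ± 0.26 (adjusted p = 0.0215, limma), while a dimmer Parp14 probe set gave 0.68 and did not pass. Parp9 had 11.25, 11.65 and 11.94 with mD1R, against 10.27, 10.82 and 10.80 with PBS, and rose by 0.99 ± 0.24 (adjusted p = 0.0370). The nucleic acid binding gene Ifi204 had 11.23, 10.30 and 11.04 with mD1R, against 9.60, 9.82 and 9.52 with PBS, and rose by 1.21 ± 0.26 (adjusted p = 0.0263). Unlike most members, Ifi204 was highest in mD1R replicate 1. Trim30a, a mouse Trim protein known to restrain NF-kappaB signalling, had 13.09, 12.73 and 13.35 with mD1R, against 12.19, 12.50 and 12.17 with PBS, and rose by 0.77 ± 0.21 (adjusted p = 0.0494). A second Trim30a probe set gave 0.80 with overlapping groups and did not pass (adjusted p = 0.118). Ifi35 (0.72 ± 0.29) and the Xiap inhibitor Xaf1 (0.91 ± 0.31) did not pass.

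No member of the Ifit, oligoadenylate synthetase and Mx families or of the other antiviral enzymes passed, although most had positive differences. Since 8.49% of all genes passed as higher, finding none among so few genes is near that share. Ifit1, which binds foreign RNA ends, had 11.26, 11.31 and 13.55 with mD1R, against 9.49, 11.58 and 11.36 with PBS, a difference of 1.22 ± 0.73 (adjusted p = 0.304, limma). Its mD1R replicates 1 and 2 lay below PBS replicates 2 and 3 and above PBS replicate 1. Ifit2 (0.95 ± 0.68) and Ifit3 (1.10 ± 0.73) were likewise lowest on PBS replicate 1 and highest on mD1R replicate 3. The oligoadenylate synthetase family, which activates the RNA-degrading RNase L or relates to it by sequence, gave 0.65 ± 0.49 for Oas2, 1.21 ± 0.56 for Oasl1 and 1.33 ± 0.53 for Oasl2. The Mx GTPases gave 0.90 ± 0.32 for Mx1 and 0.92 ± 0.53 for Mx2. Among other antiviral enzymes, the values were 0.89 ± 0.52 for the viperin gene Rsad2, 0.74 ± 0.40 for the kinase gene Eif2ak2 (PKR), 0.72 ± 0.55 for the exonuclease gene Isg20 and 0.53 ± 0.27 for the RNA-editing deaminase gene Adar. Only Cmpk2, a nucleotide kinase, and Samhd1, which breaks down deoxynucleotides, had negative differences, -0.16 ± 0.50 and -0.16 ± 0.36. With the spike-in set as a block Ifit1 (1.93 ± 0.17, adjusted p = 0.00671), Ifit2, Ifit3, Oas2, Oasl1, Oasl2, Mx1, Mx2, Rsad2 and Adar all passed as higher, against 9.09% of all genes. Isg20, Eif2ak2, Cmpk2 and Samhd1 did not pass in that fit.

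**Figure D3:**
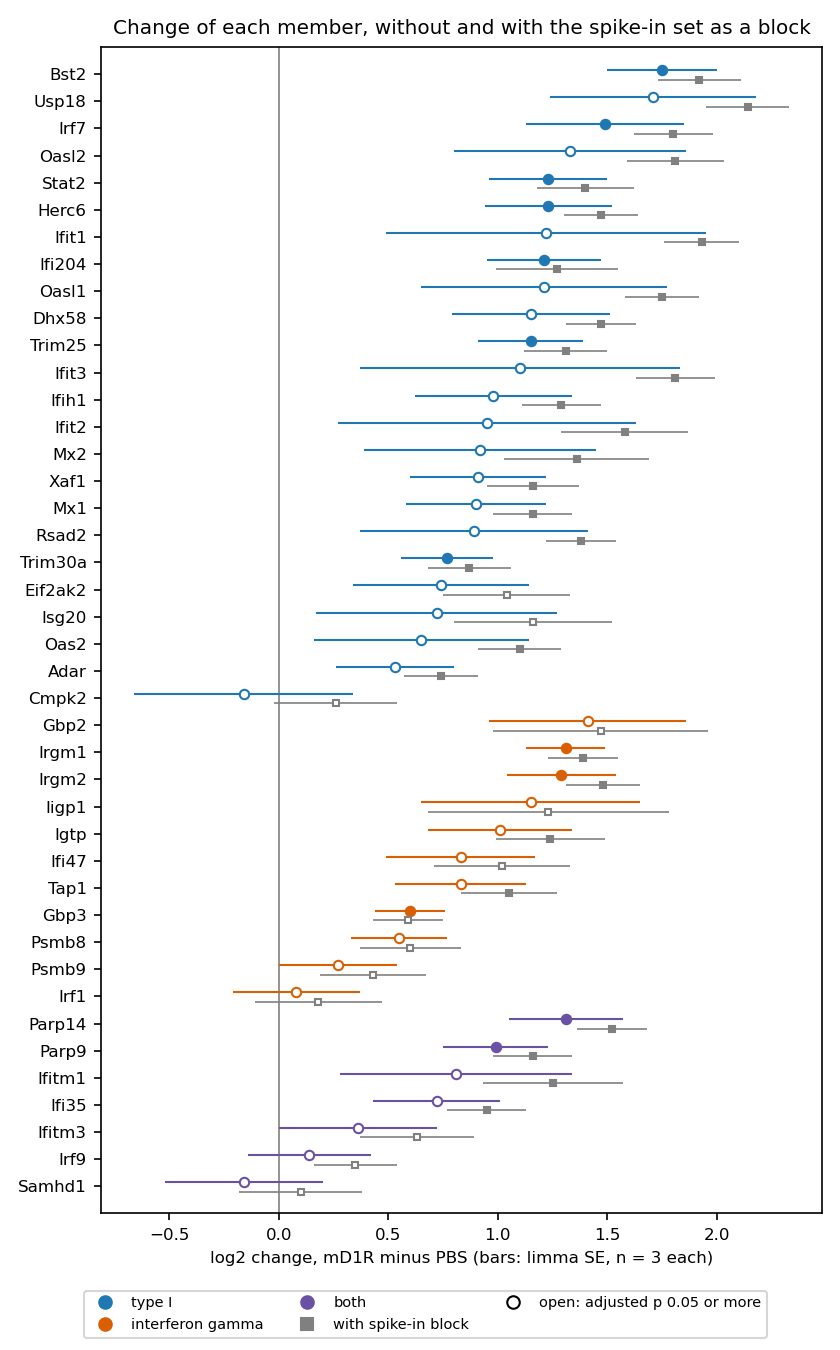
Log2 change (mD1R minus PBS) of each member with limma's SE, by class (coloured circles, n = 3 arrays each) and with the spike-in set as a block (grey squares); filled symbols passed adjusted p 0.05. The Ifit genes have the widest bars without the block (SE 0.68 to 0.73) and narrow ones with it (0.17 to 0.29).

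Most members shared an array pattern, in genes and spike-in sets that were chosen with earlier results of these data known. Replicate 3 was the highest of the 3 mD1R arrays in 36 of 42 members and the highest of all 6 in the same number (85.7%, against 14.1% of all genes tested). Replicate 1 was the lowest of the 3 PBS arrays in 39 members and the lowest of all 6 in 34 (81.0%, against 17.2% of all genes). Both arrays thus stood apart in the same sense as the treatment difference, and each belonged to the spike-in set in which its group had fewer arrays. Set 2 exceeded set 1 by a median of 0.77 among mD1R arrays and 0.64 among PBS arrays, against -0.00 and -0.08 for all genes, so the sets differed in these genes within both groups. Inside set 1 both mD1R arrays lay above the PBS array in 37 members (88.1%, against 40.5% of all genes), and inside set 2 the mD1R array lay above both PBS arrays in 41 (97.6%, against 48.7%). Relative to PBS replicates 2 and 3, members had a median of 0.15 in mD1R replicate 1 and 0.45 in mD1R replicate 2, against 0.14 and 0.12 for all genes, while mD1R replicate 3 had 1.27. The same medians for interferon gamma members were 0.09 in mD1R replicate 1, 0.97 in replicate 2 and 0.92 in replicate 3, and for type I members 0.35, 0.27 and 1.44. What the spike-in sets stand for is not given in the sources used here, and with 1 array of a group in each set, the set and the single array cannot be told apart.

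Type I and interferon gamma members differed in how they followed this pattern. The median log2 change was 1.04 over 24 type I members, of which 7 rose, and 0.83 over 11 interferon gamma members, of which 3 rose. Over the 7 members of both classes it was 0.72 and 2 rose. Of all genes tested 8.49% rose. Relative to the PBS mean, the median of type I members was 0.73, 0.57 and 1.77 on mD1R replicates 1, 2 and 3, against -0.57, 0.41 and 0.15 on the PBS arrays. For interferon gamma members it was 0.34, 1.15 and 1.18 with mD1R, against -0.34, 0.20 and 0.09 with PBS. Type I members were highest on mD1R replicate 3 in 23 of 24 cases, and interferon gamma members in 6 of 11, the other 5 being highest on replicate 2. Between the sets, type I members differed by medians of 0.99 among mD1R and 0.86 among PBS arrays, and interferon gamma members by 0.37 and 0.51. With the set as a block, 21 of 24 type I and 4 of 11 interferon gamma members rose, against 9.09% of all genes, and the medians were 1.37 and 1.05. In other fits a larger share of the interferon gamma class rose: 7 of 24 type I and 7 of 11 interferon gamma members rose with array weights (medians 0.61 and 0.82), 11 and 7 with a replicate block, and 3 and 7 without mD1R replicate 1. Of all genes 15.5%, 11.5% and 5.58% rose in these fits, in that order. The medians of type I and interferon gamma members were 0.63 and 0.66 without mD1R replicate 3, and 0.68 and 0.71 without PBS replicate 1, so the larger type I value was not seen without either array. These class values are descriptions, and the difference between the classes was not tested.

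**Figure D4:**
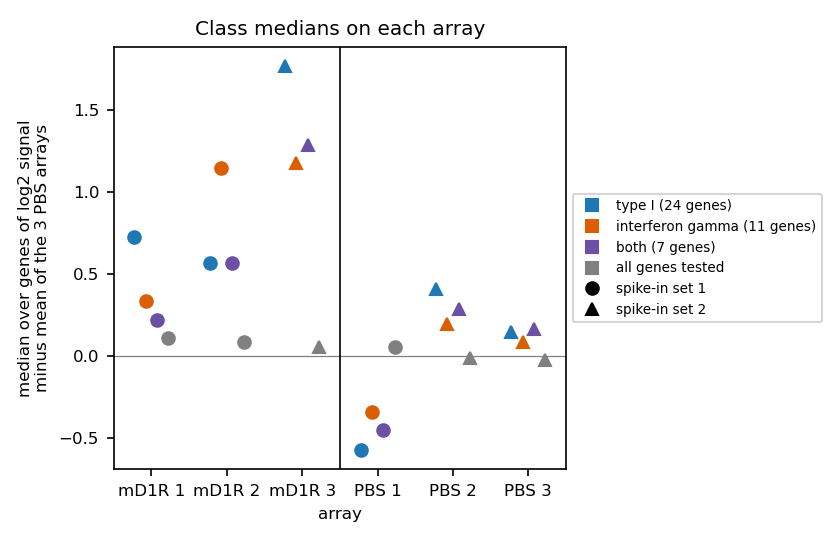
Median over genes of the log2 signal relative to the mean of the PBS arrays, for type I, interferon gamma and shared members and for all genes tested, on each array (mD1R left, PBS right; circles spike-in set 1, triangles set 2). Type I members reach 1.77 on mD1R replicate 3 and lie at -0.57 on PBS replicate 1, while all genes stay within 0.11 of 0.

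Receptor chains and kinases upstream of these targets were partly higher. Of 11 tested genes for receptors and Jak-Stat signalling 4 rose and 0 fell, against 8.49% and 7.09% of all genes. Ifnar1, the first chain of the type I receptor, had 10.51, 10.67 and 9.92 with mD1R, against 9.21, 9.57 and 9.59 with PBS, and rose by 0.91 ± 0.24 (adjusted p = 0.0477, limma). Ifngr2, the signalling chain of the gamma receptor, had 11.54, 11.54 and 10.92 with mD1R, against 10.20, 10.46 and 10.63 with PBS, and rose by 0.90 ± 0.23 (adjusted p = 0.0396). Il10rb, a chain shared by the receptors of IL-10 and the type III interferons, rose by 1.02 ± 0.23 and Jak2 by 1.14 ± 0.27. With the spike-in set as a block Ifnar1 (adjusted p = 0.0702; 1.38 within set 1 and 0.34 within set 2) and Ifngr2 (adjusted p = 0.0578; 1.34 and 0.38) no longer passed. In these 4 genes mD1R replicate 3 was the lowest of the mD1R arrays, the reverse of its place among the targets. Ifnar2 (0.97 ± 0.29, adjusted p = 0.0669), Ifngr1 (0.15 ± 0.30), the type III receptor gene Ifnlr1 (-2.77 ± 1.05, adjusted p = 0.124), Jak1 (-0.01 ± 0.20), Tyk2, Stat3 and Stat4 did not pass. Among 13 restraints of signalling 1 rose, a share near the 8.49% of all genes. It was the feedback inhibitor gene Socs1, with 9.41, 9.22 and 8.42 with mD1R, against 7.22, 7.58 and 7.43 with PBS (1.61 ± 0.30, adjusted p = 0.0176). The next smallest p belonged to Pias3 (-0.79 ± 0.22, adjusted p = 0.0547).

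No interferon gene passed the test. Only 3 of 10 ligand genes with a probe set passed the filter, and Ifnb1 (0.03 ± 0.59), Ifng (-0.81 ± 0.69) and Ifnz (0.49 ± 0.43) did not pass the test (limma). Of 18 nucleic acid sensing genes 4 rose and 0 fell, against 8.49% and 7.09% of all genes. The risers were the endosomal RNA receptors Tlr3 (2.05 ± 0.33) and Tlr7 (1.71 ± 0.28), the RIG-I gene Ddx58 (1.21 ± 0.29) and its adaptor Mavs (1.29 ± 0.32). Tlr3 had 8.87, 8.23 and 8.11 with mD1R, against 6.48, 6.67 and 5.88 with PBS. In all 4, every mD1R array lay above every PBS array, which held for 22.1% of all genes.

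Other interferon-induced genes, from lists that leave out the members, included risers and no gene that fell. Over these lists and those of receptors, ligands, restraints and sensing together, 26 of 114 genes tested rose (22.8%, against 8.49% of all genes) and 0 fell (against 7.09%), with a median change of 0.57. Of 43 other type I targets 12 rose, with a median of 0.81. They were led by Lgals3bp, a secreted galectin-binding protein, with 13.46, 13.76 and 13.55 with mD1R, against 10.99, 11.42 and 11.19 with PBS (2.39 ± 0.18, adjusted p = 0.00778, limma). The checkpoint ligand gene Cd274 (PD-L1) rose by 1.99 ± 0.24, Slfn5 by 1.75 ± 0.40, Tor3a by 1.59 ± 0.18, Oas1b by 1.51 ± 0.31 and Parp12 by 1.33 ± 0.35, and Ifi27, Phf11d, Rnf213, Znfx1, Pml and Ddx58 rose too. Ifi27 no longer passed with the spike-in set as a block (adjusted p = 0.0759; 1.34 within set 1 and 0.48 within set 2). Of 30 other interferon gamma targets 7 rose, with a median of 0.58. Gbp6 had 10.87, 11.11 and 10.84 with mD1R, against 8.60, 9.33 and 8.89 with PBS (3.99-fold, adjusted p = 0.00968). The others were Batf2 (2.03 ± 0.37), the adhesion molecule gene Icam1 (1.65 ± 0.29), Socs1, the peptide-loading gene Tapbp (1.07 ± 0.22), Gbp7 (1.01 ± 0.20) and the peptide trimming gene Erap1 (0.77 ± 0.20), which no longer passed with the block (adjusted p = 0.0537). The class I genes B2m, H2-K1 and H2-D1 differed by 0.28, 0.35 and 0.26 and did not pass.

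Markers of other cell types moved with the groups, and their part in the interferon gene results was not tested. Beside the counts below, 8.49% of all genes tested rose and 7.09% fell. Summed signals take every listed marker with a probe set, also those below the filter, so a sum can cover more genes than its count. Of 12 tested mast cell and basophil markers 10 rose and 0 fell, and their summed log2 signal was 16.06 to 16.52 with mD1R, against 13.80 to 14.48 with PBS. Hdc had a negative difference (-1.34 ± 0.55) and Tpsb2 a positive one (2.49 ± 1.02), and neither passed. Of 14 macrophage and monocyte markers 5 rose and 0 fell (16.33 to 17.15 with mD1R, against 15.32 to 15.59 with PBS). The risers were Cd68 (1.74 ± 0.27), Csf1r (1.09 ± 0.24), Msr1, Adgre1 and Ms4a7. Ccr2 (-1.37 ± 0.53) and Itgam (-0.33 ± 0.22) had negative differences that did not pass. Mrc1, C1qa, C1qb and C1qc had positive differences that did not pass either. Plasmacytoid dendritic cells are the main type I interferon producers, and of their 11 markers 2 rose and 2 fell (14.26 to 14.69 with mD1R, against 13.67 to 14.14 with PBS). The risers were the members Bst2 and Irf7, the brightest of these markers with mD1R (means 13.21 and 12.61). The defining genes Siglech and Ccr9 fell, with log2 changes of -2.81 ± 0.56 and -2.90 ± 0.76. Siglech had 5.55, 6.61 and 5.86 with mD1R, against 10.12, 8.09 and 8.24 with PBS. Of 12 neutrophil markers 0 rose and 2 fell (15.78 to 18.31 with mD1R, against 18.05 to 18.36 with PBS), and mD1R replicate 3 was the one at 18.31. Of 9 natural killer markers 1 rose and 6 fell, while their summed signal was 14.31 to 14.65 with mD1R, against 13.41 to 13.62 with PBS. The riser was Gzmb, the brightest of them, with means of 14.39 with mD1R and 12.91 with PBS. All the other natural killer markers had negative differences. Of 9 B and T cell markers 1 rose and 5 fell (11.06 to 11.51 with mD1R, against 11.47 to 12.07 with PBS). Of 8 stem cell markers 4 rose and 1 fell (13.45 to 14.03 with mD1R, against 11.87 to 12.11 with PBS). Conventional dendritic cell markers had 0 risers and 2 that fell, Flt3 and Cd209a, among 5 tested (9.02 to 11.08 with mD1R, against 9.87 to 10.69 with PBS). Among 5 tested genes listed as lineage markers, Il7r rose (2.24 ± 0.45, adjusted p = 0.0208, limma) and 0 fell. Endothelial markers had 1 riser, Pecam1, and 0 that fell among 5 tested. No marker of these lists was listed at 0 on any array. Some called markers passed the filter (5.27) only through the group in which they were higher. Mcpt4, counted as a riser, had a PBS mean of 3.39. Cd3d, Cd2 and Ncr1, counted as fallen, had mD1R means of 5.05, 5.18 and 5.07. The counts of these lists therefore partly depend on the filter.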

How the data were processed

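The authors deposited log2 signals for 45101 probe sets (64 controls) on 6 Affymetrix arrays. The submitters' processing notes name MAS5, a per-array summary that subtracts mismatch signal and makes dim values noisy. The genome build and detection calls were not given in the sources used here. Symbols came from the platform annotation. Probe sets with 1 symbol numbered 34945, and 932 with several were not named. The deposited log2 values, not scaled further, went into two-sided tests with limma 3.58.1 (R 4.3.3, eBayes using a mean-variance trend), for 27022 probe sets at or above the 40th percentile of mean signal (5.27), with Benjamini-Hochberg adjustment over all of them and a threshold of 0.05. Errors are limma's standard errors (n = 3 per group), and the number of arrays limits precision: the median over genes was 0.27. The named genes were all members, other pathway genes that passed, the 2 smallest p per list, and the receptors. Members, lists, marker sets and the spike-in sets were chosen with earlier results of these data known. Other settings changed the scaling, added a pseudocount, moved the filter or threshold, varied the error model, used blocks or array weights, chose other probe sets or left out 1 array.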

Additional observations from a re-analysis of the deposited data

How the results depend on the processing

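All 12 risers had positive changes in each of 16 other fits, as did 38 of 42 members. Of the 42 members, 12 rose, against 8.49% of all genes; the count was 5 with no variance trend (5.3% of all genes), 16 with array weights (15.5%), 20 with a replicate block (11.5%), 29 with the spike-in set as block (9.09%), and between 0 and 12 with 1 array left out. No fit called a member lower. Of the other pathway genes 26 rose, 12 with no variance trend and 41 with the spike-in block, and between 0 and 30 with 1 array left out. None of them was called lower in the fit as reported, against 1 with quantile normalization, with the filter at the 60th percentile or with the replicate block, 2 at an adjusted p of 0.1, 5 with array weights, and 0 to 3 with 1 array left out. Of all probe sets 3413 passed, 2213 with no variance trend, 6508 with array weights, 5737 at an adjusted p of 0.1, and 0 to 5554 with 1 array left out. The 0 came from limma when PBS replicate 3 was left out, although 5853 had an unadjusted p below 0.05 and 21 members among them were higher. The causes were not tested. The median change ranged from 0.61 to 1.44 for type I members and from 0.66 to 1.24 for interferon gamma members over all settings. Same-numbered arrays had deviations from their group means that correlated at 0.313, 0.028 and 0.132. Arrays with different numbers gave -0.220 to 0.145. The labels state no pairing, and these values do not settle whether the numbers are one, so the fit as reported used none. Members near 0 changed sign, and with 1 array left out their ranges were -0.17 to 0.35 for Irf1, -0.17 to 0.32 for Irf9, -0.45 to 0.24 for Samhd1 and -0.76 to 0.27 for Cmpk2. Irf9 gave -0.02 with array weights, and Samhd1 gave 0.10 and Cmpk2 0.26 with the spike-in block. Without detection calls, a dim signal could not be told from background.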

Other observations

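Class II antigen presentation genes, which interferon gamma induces through Ciita, showed another array order. These genes were picked after their values were seen, and no explanation is offered. H2-Ab1 had log2 signals of 10.74, 12.81 and 9.62 with mD1R, against 10.37, 9.96 and 10.01 with PBS. H2-Eb1 had 11.78, 12.98 and 10.05 with mD1R, against 10.97, 10.90 and 11.16 with PBS, and Cd74, the invariant chain gene, had 10.67, 12.11 and 10.11 with mD1R, against 10.54, 10.51 and 10.49 with PBS. All were highest on mD1R replicate 2 and lowest on mD1R replicate 3, while their PBS arrays lay close together, and none passed the test (adjusted p = 0.401, 0.569 and 0.545, limma). Replicate 2 was also the highest mD1R array for Gbp2 (12.91) and Iigp1 (11.78), with 11.02 and 11.74 for Gbp2 and 9.58 and 10.61 for Iigp1 on replicates 1 and 3.

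Some type I targets did not follow the members. Sp110 had 7.76, 7.86 and 9.02 with mD1R, against 9.05, 9.31 and 9.16 with PBS, and did not pass (-0.96 ± 0.34, adjusted p = 0.106). Slfn1 differed by -0.74 ± 0.66, Sp100 by -0.38 ± 0.40 and Slfn4 by -0.14 ± 0.41. In all 4 mD1R replicate 3 was the highest mD1R array.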
